A study of Mus musculus with 16 samples.

Results

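The Ier, Btg/Tob and Zfp36 genes studied here are 10 genes of the early transcriptional response, Ier2, Ier3, Ier5, Btg1, Btg2, Tob1, Tob2, Zfp36, Zfp36l1 and Zfp36l2. They were chosen by name, with earlier results of these data known, and found by symbol in the table of gene counts. The gene lists used below were chosen in the same way. Shares of all tested genes beside their counts are therefore descriptions and not independent tests. All 10 were present among 23479 genes, and all 10 passed the filter on low counts that left 18430 genes for testing. RNA sequencing was done on CD4 T cells purified from mouse spleen by removing other cells with magnetic beads. The mice were of strain C57BL/6, and their age was not given in the sources used here. One group of 5 libraries came from control mice without a tumour (day 0 in the labels), 7 libraries from mice that had received Eµ-Myc lymphoma cells 7 days earlier and 4 from mice 14 days after that transplant. Eµ-Myc lymphoma is a B cell tumour in which an immunoglobulin heavy chain enhancer drives the Myc oncogene, and whether the transplanted cells were 1 line or several was not given. The group sizes are given as numbers of mice, so a library stands for 1 mouse here.

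Early response genes are transcribed within a short time of a stimulus, and many of their products shut the response down again. The BTG and TOB proteins bind the CCR4-NOT complex, which removes the poly(A) tail of messenger RNA, and they restrain cell division; Btg1 and Btg2 are known for keeping resting T cells quiescent, and Tob1 for limiting T cell proliferation. The ZFP36 proteins are zinc finger proteins that bind AU-rich elements in the 3′ untranslated region (UTR) of cytokine and other messenger RNAs and bring the same deadenylation complex to them. The IER proteins share the name "immediate early response" and not one function: IER2 acts in the nucleus, IER3 modulates cell survival and NF-kappaB signalling, and IER5 takes part in the control of the heat shock factor HSF1.

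The transcripts of several of these genes carry the ZFP36 binding motif themselves, and 1 site of each such gene is shown here. In the GENCODE transcript with the longest coding part, the 7-base motif TATTTAT (searched on the transcript strand, overlaps allowed) occurred 4 times in the 3′ UTR of Ier3, 3 times in Zfp36, Zfp36l1 and Zfp36l2, once in Btg2 and Tob2, and not in Ier2, Ier5, Btg1 and Tob1. Of 15560 tested genes with a 3′ UTR of at least 50 bases, 27.2% held at least 1 and 3.5% at least 3 such motifs. The capitals mark the motif.
Ier3: aacacagaTATTTATtacgattt
Zfp36: gggcccttTATTTATgacgactt
Zfp36l1: tcaaaacgTATTTATtgccaaac
Zfp36l2: atttaactTATTTATtatcttgt
Btg2: tgaagagcTATTTATacatgttt
Tob2: cacctgctTATTTATgtacgagg
A match is a description of these letters and not a measured binding site.

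The genes lie on 8 chromosomes and are short, with 1 exon in Ier2 and Ier5 and 2 exons in the chosen transcript of each of the other 8. In GRCm38 coordinates Ier2 lies on chromosome 8 from 84661331 to 84662852, Ier5 on chromosome 1 from 155096361 to 155099636, and Btg2 on chromosome 1 from 134075170 to 134079120. Tob1 lies on chromosome 11 from 94211454 to 94215495, Tob2 on chromosome 15 from 81848272 to 81858796, and Btg1 on chromosome 10 from 96617006 to 96622809. Ier3 lies on chromosome 17 from 35821684 to 35822923, Zfp36l2 on chromosome 17 from 84183931 to 84187947, Zfp36 on chromosome 7 from 28376784 to 28380253, and Zfp36l1 on chromosome 12 from 80107754 to 80113013. GENCODE places 1 gene on the opposite strand over each of Tob2, Zfp36, Zfp36l1 and Zfp36l2. Whether counting used strand was not given, so reads from these partners cannot be told apart from those of the 4 genes.

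Libraries held 14493764 to 27340070 gene counts, of which the 10 genes took 0.332% to 0.498%. The T cell label held in the markers: 7 CD4 T cell genes, Cd4 and Cd3e among them, summed to 2570 CPM (gene counts scaled to a common library total) or more in each library, and Cd8a with Cd8b1 to at most 17.6 CPM. Control libraries 1 and 2 and day 14 library 4 stood apart in markers of other cells, with 12 neutrophil genes summing to 839, 2525 and 1565 CPM against at most 54.7 CPM in the other libraries. Reads that fell outside gene models made up 47.06% to 56.67% in controls, 54.63% to 67.97% at day 7 and 54.41% to 69.78% at day 14. In bulk libraries, fewer cells of a type and less RNA per cell cannot be told apart.

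Among themselves the 10 genes spanned a wide range of levels. Levels between genes are given as CPM per kilobase of transcript (CPM scaled by the TMM method of edgeR, then divided by transcript length), as means ± SD over the 5 controls. Zfp36l2 was highest at 362 ± 111 and Btg1 followed at 242 ± 63.6, with overlapping libraries. Zfp36l1 (154 ± 25.6) and Zfp36 (154 ± 37.4) came next and could not be separated from each other, and both overlapped Btg2 at 99.7 ± 18.5, while Zfp36 also overlapped Btg1. Ier2 at 62.4 ± 2.17 lay between Btg2 and Ier5 without overlapping either. Ier5 (37.7 ± 4.75), Tob2 (34.3 ± 11.5) and Tob1 (29.5 ± 8.69) overlapped one another, and Ier3 was lowest at 4.62 ± 3.42. Counting all annotated exons as length would put Tob2 at 21.4, below Tob1, and Zfp36 at 124. At day 14 Ier5 (24.3 ± 4.54, n = 4) no longer overlapped Tob2 (17.8 ± 3.42), while Tob1 stood at 13.7 ± 5.34.

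**Figure D1:**
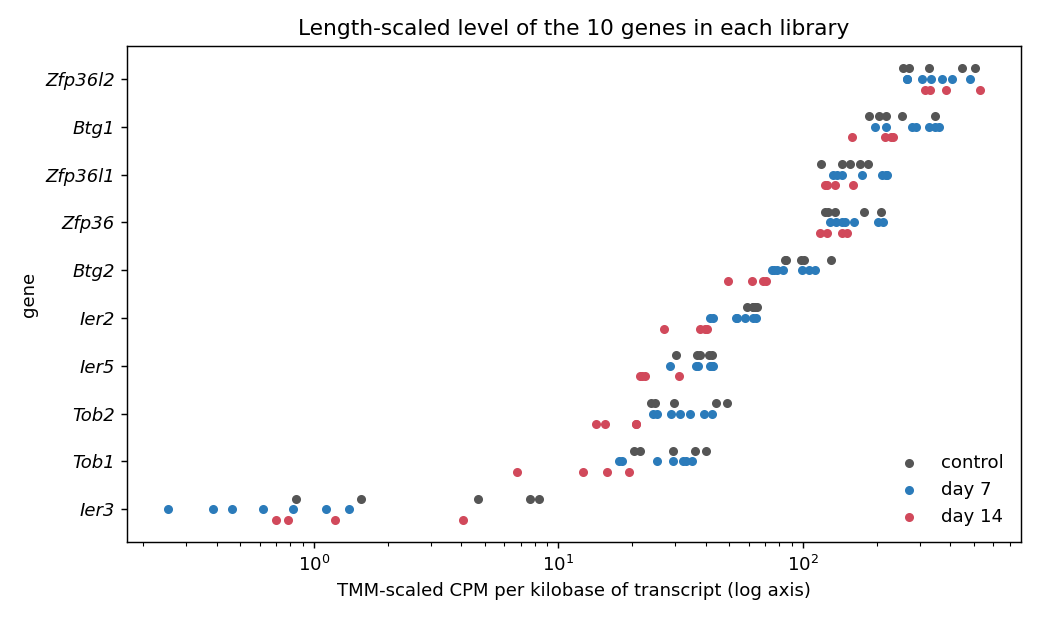
Length-scaled level of each gene (horizontal log axis, TMM-scaled CPM per kilobase of transcript) in every library, 1 point per library, with controls in grey, day 7 in blue and day 14 in red. The genes are ordered by their control mean from Ier3 at 4.62 to Zfp36l2 at 362, and the day 14 points lie to the left of the control points for Ier2, Btg2, Tob1 and Tob2.

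At day 14 against control, 5 of the 10 genes fell and none rose. They were Ier2, Ier5, Btg2, Tob1 and Tob2, lower by 1.55-fold to 2.16-fold, while Btg1 and the 3 Zfp36 genes did not pass and Ier3 did not pass either. Of all tested genes 1.8% were called lower, 1.33% higher and 3.13% either way (edgeR quasi-likelihood test, Benjamini-Hochberg adjusted p below 0.05). The libraries of the groups did not overlap for 4 of the 10, Ier2, Btg2, Tob1 and Tob2, all lower, a pattern that 2.85% of all tested genes showed, with 5.24% showing it upward. At an unadjusted p below 0.05 the count was also 5 of 10, against 22.4% of all tested genes. The median log2 change of the 10 was -0.65, and that of all tested genes 0.12. Scaling by library totals alone moved the median of all genes to 0.32. Relative to that median, Ier2 stood at -0.90 under both scalings.

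**Figure D2:**
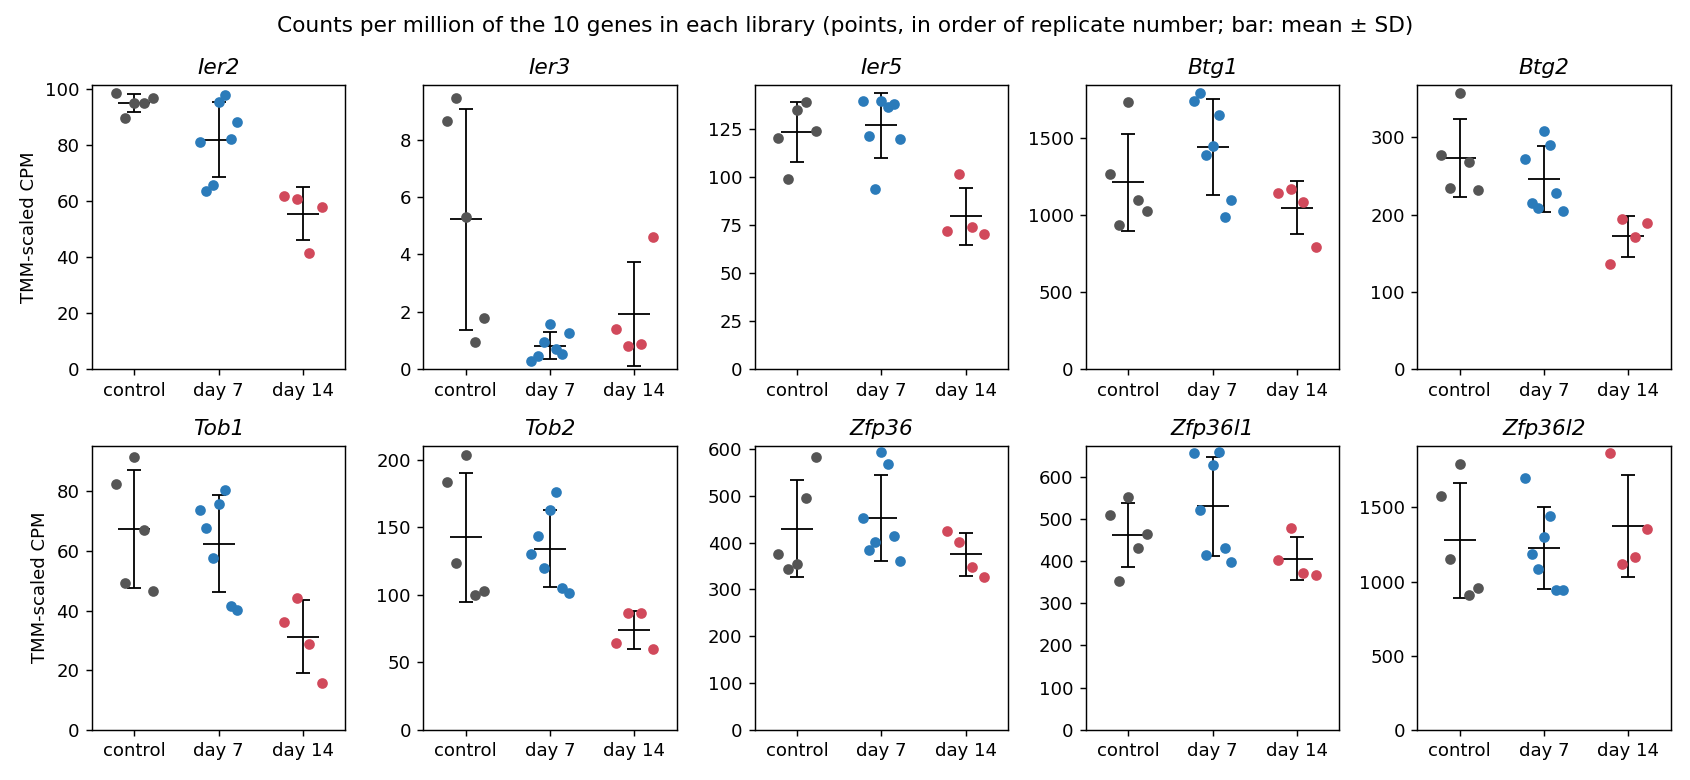
TMM-scaled CPM (vertical axis, from 0) of each of the 10 genes by group; points are libraries in order of replicate number and bars are the mean ± SD over 5 control, 7 day 7 and 4 day 14 libraries. For Ier2 the 4 day 14 libraries, at most 61.8 CPM, lie below every day 7 and control library, whereas the groups of the 3 Zfp36 genes overlap.

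Ier2 was the steadiest of the 10 in controls. It stood at 98.4, 89.6, 94.9, 94.8 and 96.7 CPM in control libraries 1 to 5 and at 61.8, 60.4, 41.3 and 57.9 CPM in day 14 libraries 1 to 4. Every day 14 library lay below every control, and library 3 was the lowest. The log2 change was -0.78 ± 0.14 (SE) with an edgeR adjusted p of 0.0102.

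Ier5, the other single-exon gene, also fell, but with an overlap. Its controls stood at 120, 99.1, 135, 139 and 124 CPM and its day 14 libraries at 71.7, 102, 74.2 and 70.3 CPM. Day 14 library 2 lay above control library 2, and the other 3 day 14 libraries lay below every control. The log2 change was -0.63 ± 0.14 (SE, edgeR adjusted p = 0.0253).

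Of the antiproliferative genes, Btg2 fell and its paralog Btg1 did not pass. Btg2, which is also a target of p53, stood at 277, 235, 357, 268 and 231 CPM in controls and at 135, 194, 170 and 189 CPM at day 14. All 4 day 14 libraries lay below the lowest control, and library 1 was the lowest (log2 change -0.67 ± 0.16 SE, edgeR adjusted p = 0.0315). Btg1 stood at 1265, 932, 1736, 1094 and 1026 CPM in controls and at 1143, 1169, 1085 and 793 CPM at day 14. Only library 4 lay below every control, and the log2 change of -0.21 ± 0.20 (SE) did not pass (edgeR adjusted p = 0.525). The log2 ratio of Btg2 to Btg1 counts within a library, which no scaling touches, averaged -2.13 in the 5 controls (SD 0.119), -2.53 in the 7 day 7 libraries (SD 0.322) and -2.60 in the 4 day 14 libraries (SD 0.415). The day 14 ratios ran from -3.08 to -2.07 and overlapped the control ratios of -2.28 to -1.99.

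Both Tob genes fell, with the largest folds among the 5. Tob1 stood at 82.6, 49.2, 91.6, 67.2 and 46.5 CPM in controls and at 36.2, 44.3, 28.9 and 15.5 CPM at day 14. The highest day 14 library, 2, lay just under the lowest control, 5, and library 4 was far below (log2 change -1.11 ± 0.28 SE, 2.16-fold lower, edgeR adjusted p = 0.0424). Tob2 stood at 183, 123, 203, 99.7 and 103 CPM in controls and at 64.3, 86.3, 86.2 and 59.4 CPM at day 14. Control libraries 1 and 3 were high for both Tob genes, and no day 14 library reached the lowest control of either (Tob2 log2 change -0.94 ± 0.22 SE, edgeR adjusted p = 0.0311).

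The Zfp36 genes gave no call at day 14. Zfp36, which encodes tristetraprolin, stood at 343 to 582 CPM in controls with a median of 376 CPM, and at 424, 401, 348 and 326 CPM at day 14. Only day 14 library 4 lay below every control, and control libraries 4 and 5 were high. The log2 change was -0.20 ± 0.17 (SE, edgeR adjusted p = 0.494), and 2 standard errors on either side reach from -0.55 to 0.15. Zfp36l1, which acts with Zfp36l2 in lymphocyte development, stood at 352 to 552 CPM in controls and at 403, 480, 373 and 368 CPM at day 14 (log2 change -0.19 ± 0.17, edgeR adjusted p = 0.507). Scaling by library totals turned the changes of Zfp36 and Zfp36l1 to 0.01 each. Zfp36l2 stood at 907 to 1791 CPM in controls and at 1868, 1117, 1164 and 1356 CPM at day 14, where library 1 exceeded every control (log2 change 0.11 ± 0.22, edgeR adjusted p = 0.774).

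**Figure D3:**
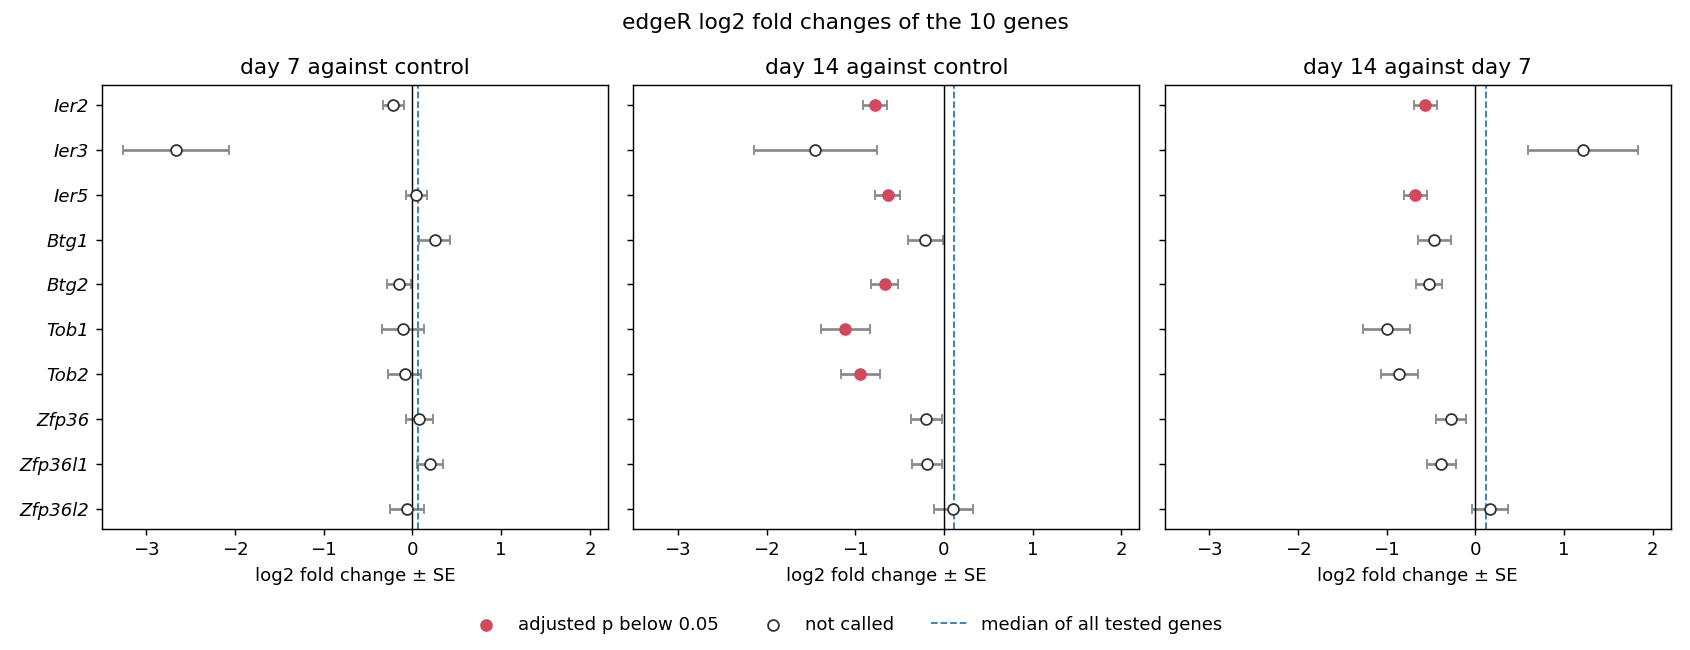
edgeR log2 fold change (horizontal axis, bars ± SE) of each gene in the 3 comparisons; filled red points have an adjusted p below 0.05, open points do not, and the dashed line is the median of all tested genes. The 5 red points at day 14 against control run from -1.11 for Tob1 to -0.63 for Ier5, and no point is red at day 7.

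Several library properties were set beside the day 14 result. The sum of 10 genes of dividing cells was 392, 1217, 970 and 1995 CPM in day 14 libraries 1 to 4, 193 to 699 CPM at day 7, and 1814, 4157, 504, 377 and 292 CPM in control libraries 1 to 5. The sum of the CD4 T cell genes had a median of 3440 CPM at day 14, 4640 CPM at day 7 and 4330 CPM in controls, with overlapping libraries. The part of either in the lower levels of the 5 genes was not tested. Day 14 libraries 1, 3 and 4 had 69.8%, 66.3% and 62.3% of reads outside gene models, above every control. With that share as a covariate none of the 5 genes passed: the log2 changes were -0.56 for Ier2, -0.25 for Ier5, -0.34 for Btg2, -0.89 for Tob1 and -0.75 for Tob2, with edgeR adjusted p-values of 0.497 to 0.718. That fit called 0 genes lower and 1 higher of all 18430, against 331 and 246 without the covariate. Day 14 library 2, with 54.4% such reads, lay within the control range of that share, and its Ier2, Btg2, Tob1 and Tob2 levels lay below every control while its Ier5 level did not. At day 7, libraries 2 and 3 had the highest shares (62.9% and 68.0%) and the lowest Ier2 levels (63.4 and 65.4 CPM), while library 5 had 61.7% and an Ier2 level of 97.6 CPM, within the control range. The part of this share in the result was not tested beyond the covariate. A fit to the control and day 14 libraries alone, without the day 7 libraries, also left none of the 5 calls, and called 0 lower and 4 higher of 16298 genes. The log2 changes there were close to those above, at -0.76 for Ier2, -0.63 for Ier5, -0.66 for Btg2, -1.10 for Tob1 and -0.93 for Tob2. Leaving out control library 3 left none of the 5 calls (Ier2 adjusted p = 0.0551) and 18 of 18389 genes called lower over the whole table. Without day 14 library 1, 3 or 4 the 1 remaining call was Ier2, without control library 1 the calls were Ier2 and Ier5, and without control library 4 they were Ier2 and Tob2. Over all genes these 5 fits called 23 to 119 genes lower. Without control libraries 1 and 2 together, the controls highest in neutrophil and cell division transcripts, all 5 passed, with edgeR adjusted p-values of 0.013 to 0.0394. That fit kept day 14 library 4 and called 486 of 19144 genes lower (2.54%), against 1.8% with all libraries.

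**Figure D4:**
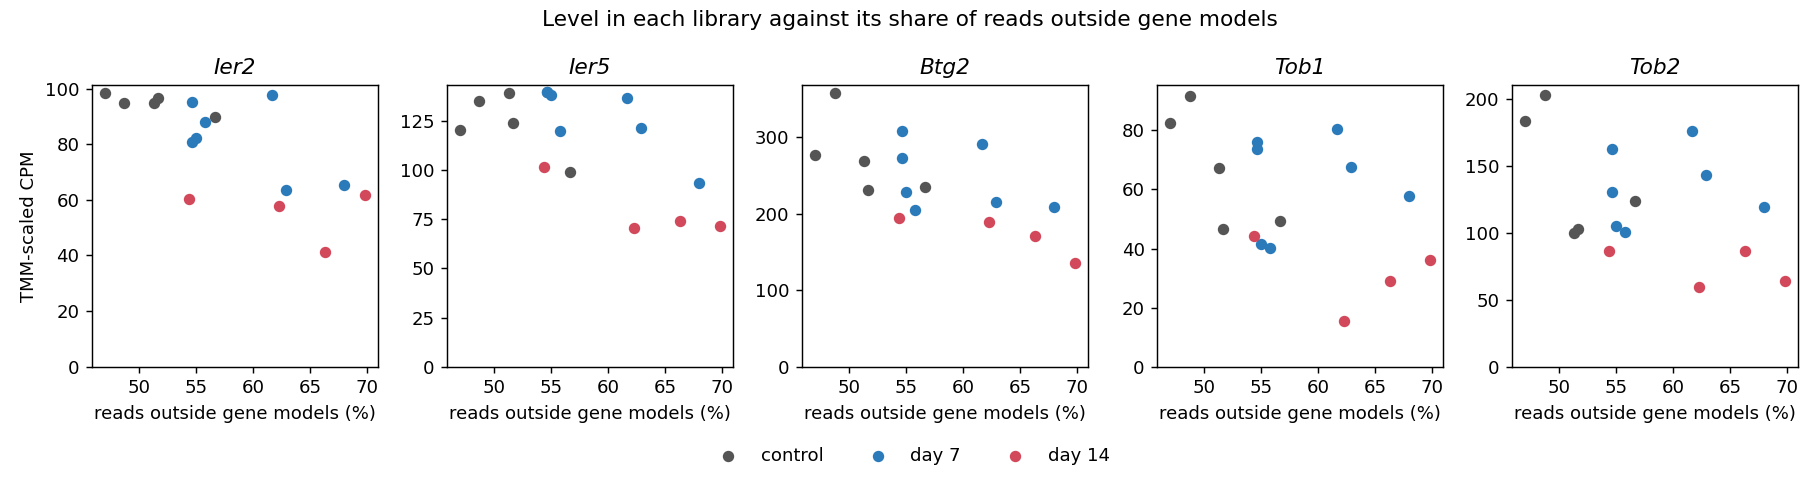
TMM-scaled CPM (vertical axis, from 0) of the 5 genes called lower at day 14 against the share of a library's reads outside gene models (horizontal axis, %), 1 point per library and coloured by group. At shares of 54% to 57%, where all 3 groups have libraries, the 1 day 14 point lies below the 1 control point for Ier2, Btg2, Tob1 and Tob2.

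At day 7 against control none of the 10 genes passed in either direction (edgeR). At an unadjusted p below 0.05, which 21.1% of all tested genes met, the count was 1, Ier3, which DESeq2 also called and limma-voom did not. DESeq2 called 5.99% of all tested genes lower in this comparison and limma-voom 0%. Of all tested genes 0% were called lower and 0.0109% either way. Groups overlapped for each of the 10, while of all tested genes 0.982% were lower and 0.988% higher without overlap, and the median log2 change of the 10 was -0.07 against 0.07 for all tested genes. Ier2 ranged from 63.4 to 97.6 CPM over the 7 libraries with a median of 82.1 CPM; libraries 2 and 3 were the lowest and libraries 4 and 5 lay within the control range (log2 change -0.21 ± 0.12 SE, edgeR adjusted p = 0.316). The Ier5 means were 123 ± 15.6 CPM for controls and 127 ± 17.0 CPM for day 7 (SD, edgeR adjusted p = 0.887). Btg1 ran from 985 to 1794 CPM with libraries 1 and 2 above every control (log2 change 0.25 ± 0.17, adjusted p = 0.445). The other 6 had log2 changes between -0.15 for Btg2 and 0.20 for Zfp36l1. Day 7 libraries 6 and 7 were the lowest of their group for Tob1 (41.6 and 40.2 CPM), Tob2 (105 and 101 CPM) and Zfp36l2 (941 CPM in each).

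Ier3 differed from the rest in level and in spread. It rested on 5 to 231 counts per library, and stood at 8.65, 9.45, 5.30, 0.953 and 1.76 CPM in control libraries 1 to 5, at 0.287 to 1.57 CPM at day 7 with a median of 0.699 CPM, and at 1.38, 0.790, 0.883 and 4.60 CPM at day 14. The groups overlapped, and the high libraries were controls 1 to 3 and day 14 library 4. The log2 change was -2.66 ± 0.60 (SE) at day 7 (edgeR adjusted p = 0.0709) and -1.45 ± 0.69 at day 14 (adjusted p = 0.223). Of the 4 high libraries, 3 were those with neutrophil marker sums of 839 CPM or more, and control library 3, with 50.7 CPM of these markers, was the exception. The sum of 11 macrophage and monocyte genes was likewise 407, 971 and 383 CPM in control libraries 1 and 2 and day 14 library 4 against at most 82.3 CPM in the other libraries. The part of such cells in the Ier3 level was not tested. Without control libraries 1 and 2 the log2 changes were -1.70 at day 7 (adjusted p = 0.328) and -0.48 at day 14 (adjusted p = 0.666).

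**Figure D5:**
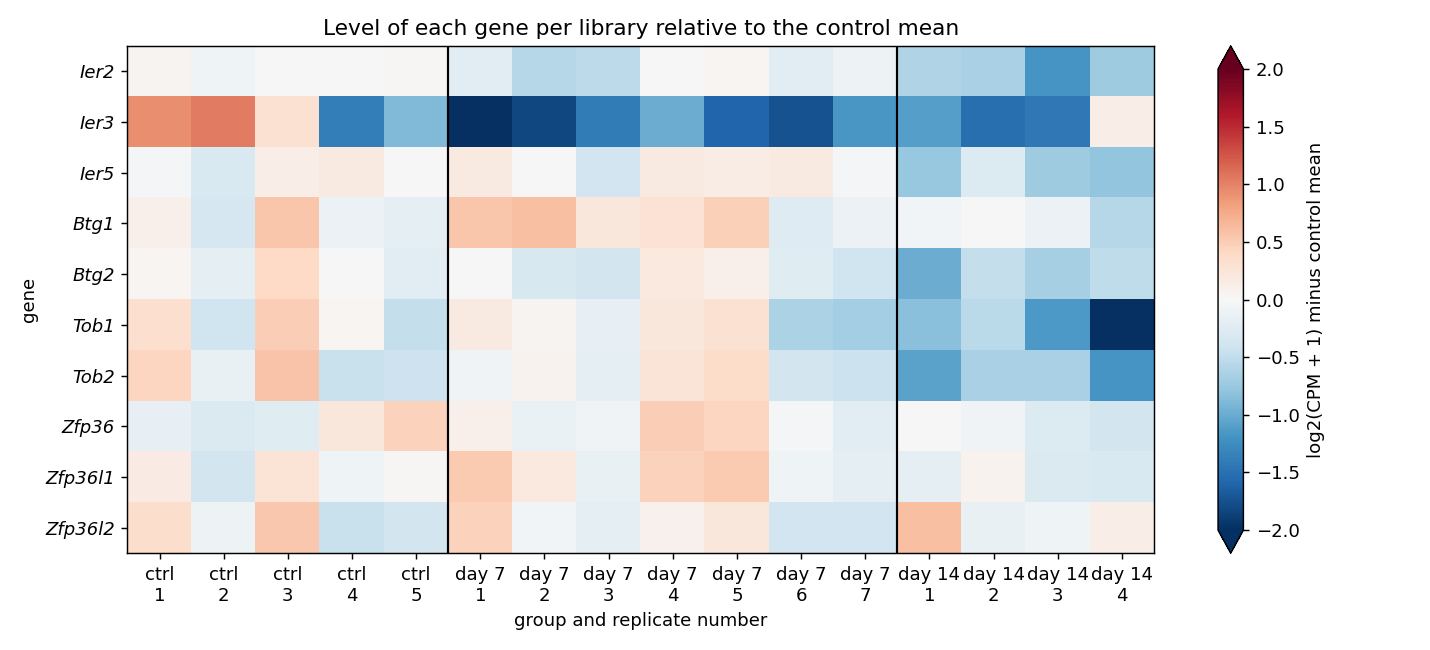
Level of each gene (rows) in every library (columns, grouped with replicate numbers) as log2(CPM + 1) minus the control mean of that gene; red is higher and blue lower, and the colour scale ends at 2 units either way. The rows of Ier2, Ier5, Btg2, Tob1 and Tob2 are blue in all 4 day 14 columns, and Ier3 is red in control libraries 1, 2 and 3.

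Day 14 against day 7 compares 2 times after transplant, both in mice given lymphoma cells. Ier2 and Ier5 fell between the time points, and none of the 10 rose. Of all tested genes 0.553% were called lower, 0.412% higher and 0.966% either way. Ier2 had a log2 change of -0.56 ± 0.13 (SE, edgeR adjusted p = 0.0454), with all 4 day 14 libraries below all 7 day 7 libraries. Ier5 had one of -0.68 ± 0.13 (adjusted p = 0.0209), where day 14 library 2 at 102 CPM lay above day 7 library 3 at 93.6 CPM. Tob2 (-0.86 ± 0.21, adjusted p = 0.0545), Tob1 (2.0-fold lower, 2 standard errors reaching from -1.53 to -0.47 on the log2 scale, adjusted p = 0.0764) and Btg2 (-0.52 ± 0.15, adjusted p = 0.0909) missed the threshold. Groups did not overlap for 3 of the 10, Ier2, Btg2 and Tob2, all lower, against 2.78% of all tested genes. At an unadjusted p below 0.05 the count was 7 of 10, against 14.8% of all tested genes. Btg1 and Zfp36l1 were among these, and their log2 changes of -0.46 ± 0.19 and -0.38 ± 0.16 had edgeR adjusted p-values of 0.252 and 0.263. The log2 changes of Ier3 (1.21 ± 0.62), Zfp36 (-0.27 ± 0.16) and Zfp36l2 (0.17 ± 0.21) had adjusted p-values of 0.382 to 0.733. Leaving out 1 library at a time gave 0 to 4 calls: none without day 7 library 1 or 5 or day 14 library 1, 3 or 4, and 4 without day 14 library 2. Over the whole table the fits without a call had 8 to 14 genes called lower, and the fit without day 14 library 2 had 276. With all libraries the number was 102. DESeq2, the fit to these groups alone and a covariate for Y-linked transcripts each called all of Ier2, Ier5, Btg2, Tob1 and Tob2. Over all genes these fits called 358, 396 and 446 genes lower, against 102 here.

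Promoter sequence was at hand for 8 of the 10 genes (RefSeq, GRCm38.p6), and for Ier2 and Zfp36l2 it was not analysed here. A set of 4 short motifs were searched on both strands from 250 bases before to 50 bases after the start site: the cAMP response element TGACGTCA, its short form TGACG (which the full element contains), the TATA box TATAAA, and the serum response factor CArG box. Btg2 held the full cAMP response element, as did 1.79% of 32851 promoters. Zfp36 held a CArG box, as did 1.63%. The short form was found in Btg2, Btg1 and Tob1 (20.8% of all promoters) and the TATA box in Btg1, Tob1 and Zfp36l1 (13.6%). No motif of the 4 was found in Ier3, Ier5 and Tob2, and none was held by all of the called genes Btg2, Ier5, Tob1 and Tob2. The TATA box was searched only as the exact letters TATAAA, so near forms such as tatataag in the Ier5 stretch were not counted. The 200 bases before the start site are shown for 3 of the genes that fell, with the matches in capitals: Btg2 at chr1:134079156-134079355 (minus strand), Tob1 at chr11:94211254-94211453 (plus strand) and Ier5 at chr1:155099637-155099836 (minus strand). For Zfp36, which did not pass, the 30 bases around its CArG box are shown, at chr7:28379267-28379296 (minus strand).
Btg2: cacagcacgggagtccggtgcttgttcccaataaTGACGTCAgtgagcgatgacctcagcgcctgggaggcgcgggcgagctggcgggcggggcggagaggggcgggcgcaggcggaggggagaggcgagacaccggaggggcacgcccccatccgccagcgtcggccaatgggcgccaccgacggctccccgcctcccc
Tob1: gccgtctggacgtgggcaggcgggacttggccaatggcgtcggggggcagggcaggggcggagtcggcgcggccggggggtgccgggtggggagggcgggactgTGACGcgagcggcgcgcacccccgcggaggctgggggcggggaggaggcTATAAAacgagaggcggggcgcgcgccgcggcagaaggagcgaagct
Ier5: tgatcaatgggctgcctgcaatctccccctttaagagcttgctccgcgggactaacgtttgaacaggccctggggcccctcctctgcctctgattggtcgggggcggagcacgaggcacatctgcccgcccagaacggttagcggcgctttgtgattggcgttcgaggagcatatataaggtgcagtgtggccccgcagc
Zfp36: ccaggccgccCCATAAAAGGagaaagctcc
These matches describe letters and say nothing about which factors act there in CD4 T cells.

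The 3 genes whose library pattern was nearest to each of the 5 called ones were not members. Members were few among the 8154 genes compared, so this does not tell whether the members moved together. Likeness was the root mean square difference, over the 16 libraries, of log2(CPM + 1) after centring each gene on its own mean, among genes averaging 10 CPM or more. For Ier2 the 3 nearest named genes were Zfp593 (0.17), Tomm7 (0.174) and Rchy1 (0.18), against a median of 0.382 over 8154 genes. For Ier5 they were Pdlim1 (0.116), the ribosomal protein gene Rpl35a (0.128) and Itga6 (0.145). For Btg2 they included Ywhaz (0.143) and Tomm7 (0.149). Tob1 was nearest to Ccr7 (0.241), the lymph node homing receptor, then Bambi-ps1 (0.265) and Ccdc117 (0.29), and its nearest fellow member Tob2 (0.294) came right after them. Tob2 was nearest to Pde4b (0.178), then Otud1 (0.198) and Fasl (0.202). The nearest fellow member was Ier5 for Ier2 (69 of the 8154 genes were nearer) and Btg2 for Ier5 (144 nearer). For Btg2 it was Ier5 (116 nearer) and for Tob2 it was Btg2 (47 nearer). These values share libraries, depth and the group differences, and carry no test.

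The machinery that BTG, TOB and ZFP36 proteins work through gave few calls. Of 18 tested deadenylation genes, 2 rose and none fell at day 14 against control (edgeR), Pan2, the catalytic subunit of the PAN2-PAN3 deadenylase (68.2 ± 6.03 to 91.6 ± 10.5 CPM, SD, adjusted p = 0.0322), and Tnrc6a, which links microRNA complexes to deadenylases (382 ± 66.2 to 532 ± 31.7 CPM, adjusted p = 0.0315). By edgeR, 1.33% of all tested genes were called higher and 1.8% lower. Day 14 and control libraries did not overlap for either gene, and 5.24% of all tested genes were higher without overlap. DESeq2 and limma-voom each called 3 of the list, against 8.42% and 5.44% of all tested genes. The list's median log2 change was -0.07, and 5 of its members were below an unadjusted p of 0.05, a level that 22.4% of all tested genes met. No member passed with edgeR at day 7, where 8 were below an unadjusted p of 0.05 (21.1% of all tested genes), DESeq2 called 5 (8.7% of all tested genes) and limma-voom none. Of 9 decapping and decay genes and 9 other AU-rich element binding proteins, none passed in any comparison with edgeR; at day 14 against control 1 and 2 of them were below an unadjusted p of 0.05, DESeq2 called 0 and 1, and limma-voom none. Their most abundant members were the decapping helicase Ddx6 (580 ± 30.8 CPM in controls and 497 ± 48.9 CPM at day 14) and Hnrnpd (764 ± 186 and 614 ± 88.2 CPM). Of 14 tested AU-rich transcripts known as ZFP36 targets, none passed with edgeR at day 14 against control. Below an unadjusted p of 0.05 there were 3, DESeq2 called 1 and limma-voom none. In this comparison 22.4% of all tested genes were below that level. DESeq2 called 8.42% of all tested genes there and limma-voom 5.44%. Their most abundant member, the receptor Notch1, had a control mean of 304 ± 58.4 CPM and a day 14 mean of 414 ± 69.1 CPM (edgeR adjusted p = 0.0917). The list's median was 0.17 against 0.12 for all tested genes, with 6 changes negative and 8 positive. That median counts genes near the floor. Csf2, Il2 and Il6, with control means of 0.126, 0.259 and 0.389 CPM, had log2 changes of 1.98, 1.17 and 0.66.

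Other immediate early genes had mostly negative changes at day 14, with few calls. Of 30 tested, 26 had negative log2 changes against control with a median of -0.69, where 42.28% of all tested genes had negative ones, and 1 fell over all genes, the stress-induced factor Atf3 (21.2 ± 21.7 to 2.05 ± 0.464 CPM, SD, edgeR adjusted p = 0.0456), whose controls ran from 0.215 to 52.7 CPM and overlapped day 14. At an unadjusted p below 0.05 the count was 19, against 22.4% of all tested genes. Over the whole table edgeR called 1.8% of tested genes lower. DESeq2 called 7 of the list, against 8.42% of all tested genes, and limma-voom none, against 5.44%. The Atf3 call was thus lost with limma-voom. Against day 7, 2 fell: Jun, an AP-1 subunit (912 ± 375 to 363 ± 49.4 CPM, adjusted p = 0.0318), and Ppp1r15a, a phosphatase regulator of the stress response (705 ± 225 to 299 ± 78.3 CPM, adjusted p = 0.0317). In that comparison edgeR called 0.553% of all tested genes lower. At day 7 against control none passed (edgeR), 3 were below an unadjusted p of 0.05, DESeq2 called 1 and limma-voom none. There 21.1% of all tested genes were below that level and DESeq2 called 8.7%. Of 18 p53 target genes, a list to which Btg2 is related, 1 fell at day 14 against control, Sesn1 (160 ± 30.4 to 109 ± 13.9 CPM, adjusted p = 0.0298), and the list's median was -0.15. The median of all tested genes was 0.12, and 1.8% of them were called lower.

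Other quiescence genes of naive T cells fell in part. Of 15 tested, 3 fell at day 14 against control, namely Ccr7, Dapl1 and 4632428N05Rik (an older symbol of Vsir), and none rose, with a median log2 change of -0.42. The share called lower among all tested genes was 1.8%, and their median was 0.12. DESeq2 called 6 of the list (8.42% of all tested genes) and limma-voom 5 (5.44%). Day 14 and control libraries overlapped for Dapl1 and 4632428N05Rik but not for Ccr7. Ccr7 fell from 427 ± 163 to 212 ± 49.5 CPM (SD, edgeR adjusted p = 0.0418). Against day 7, 4 fell, Dapl1, 4632428N05Rik and the forkhead factors Foxo1 (699 ± 83.3 to 420 ± 90.5 CPM, adjusted p = 0.033) and Foxp1 (1084 ± 103 to 696 ± 50.8 CPM, adjusted p = 0.0221). Among all tested genes 0.553% were called lower there. DESeq2 called 6 of the list (3.84% of all tested genes) and limma-voom 4 (1.03%). At day 7 against control none of the 15 was called by edgeR, DESeq2 or limma-voom, and 0 were below an unadjusted p of 0.05. Of 3 tested genes outside the 10 that share a family or only a name with them, 1 fell at day 14 against control. The share called lower among all tested genes was 1.8%. It was Ier3ip1, named as the interacting protein of Ier3 (38.7 ± 7.38 to 24.8 ± 1.44 CPM, edgeR adjusted p = 0.0311). Ier5l and Zfp36l3 did not pass, with log2 changes of 0.82 and 0.067. Ier5l stayed under 10 CPM in every library, and Btg3 stayed at or under 0.0519 CPM.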

How the data were processed

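RNA from splenic CD4 T cells was sequenced in 16 libraries after library preparation from 100 ng with a NuGEN mouse kit, per the labels' protocols. The authors deposited raw counts of reads for each gene, as whole numbers without scaling. HTSeq 0.6.1, cutadapt 1.8.1, bcl2fastq 2.20.0.422 and build mm10 are named in the submitters' processing notes; aligner, annotation and strand setting are not given in the sources used here. Totals and fits leave out 5 closing lines that name no gene; of these, reads outside gene models took 47.06% to 69.78% of all reads in a library.

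Counts of 18430 genes kept by filterByExpr (5049 removed) went into edgeR 4.0.16 under R 4.3.3, with limma 3.58.1 and DESeq2 1.42.0 as alternatives. The test used TMM scaling, the quasi-likelihood model fitted jointly to the 16 libraries, and Benjamini-Hochberg adjustment over all tested genes at 0.05. Standard errors were derived from the F statistic. The p-values set a difference between groups against the spread between these mice. In the main fit that spread was estimated jointly over the 16 libraries and drew on all tested genes. Lengths, positions and 3′ UTRs come from GENCODE M21 (GRCm38). Alternatives were other scalings, filters, tools and covariates, a replicate block, a fit to the 2 compared groups and leaving out libraries; the restriction to libraries with at most 57% of reads outside gene models was chosen after seeing the data. The script was tested on simulated counts. Of true 2-fold changes it recovered 38.1% at day 7 against control, 26.5% at day 14 against control and 41.7% at day 14 against day 7. The simulated spread was set below that of the data, where the common coefficient of biological variation was 54.5%. A change of that size can thus go without a call. The members and gene lists were chosen with earlier results of these data known. Named genes were the 10 members, up to 6 called genes per list (or the most abundant), and the 3 genes nearest to each called member, predicted genes and clone names passed over. One of these nearest genes is not reported here. Cnot9 was found as Rqcd1. No 2 columns were identical. Replicate numbers come from the titles of different mice.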

Additional observations from a re-analysis of the deposited data

Results flagged for a closer look

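In each group of each gene, the highest and the lowest library were checked for a gap to the nearest other library that was large against the range of the group. Chance gives about 1 such library in 20 groups, and 2 were found in 30 groups. Ier3 stood at 4.60 CPM in day 14 library 4, while the other 3 day 14 libraries lay between 0.79 and 1.38 CPM. Ier5 stood at 102 CPM in day 14 library 2, while the other 3 day 14 libraries lay between 70.3 and 74.2 CPM.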

How the results depend on the processing

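Changing the scaling, filter, tool, covariates or libraries moved the number of the 10 genes called lower as follows, and none was called higher under any of them. At day 7 against control it was 1 with DESeq2 (Ier3), which called 1104 genes lower. With single libraries left out it was 0 to 1, where 0 to 1026 genes were called lower over the whole table. At day 14 against control, where 5 were called, it was 0 in the fit to the 2 compared groups, 0 with the covariate for reads outside gene models, 0 among libraries with at most 57% of such reads (which left 1 day 14 library, assumed to vary like the other groups) and 0 to 5 when single libraries were left out. Over all genes these fits called 0, 0 and 0 genes lower and, with single libraries left out, 18 to 999, against 331. The 5 log2 changes stayed negative in all of these fits. Library totals alone lost Tob1 (edgeR adjusted p = 0.0563) and left Btg2 (0.0499) and Tob2 (0.0491) just under the threshold. That fit called 100 genes lower and 699 higher over the whole table, against 331 and 246. At day 14 against day 7, where 2 were called, it was 1 with RLE scaling, library totals, the stricter filter or the covariate for reads outside gene models, 5 with DESeq2, the 2-group fit or the Y-linked covariate, 0 among libraries with at most 57% of such reads, and 0 to 4 when single libraries were left out. Over all genes these fits called 72, 41, 95, 46, 358, 396, 446 and 0 genes lower in that order, against 102. With single libraries left out, 8 to 276 genes were called lower over the whole table in this comparison. The cause of these shifts was not tested.

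With a replicate block 1 gene was called at day 14 against control (Ier2) and 0 at day 14 against day 7, with 21 and 19 genes called lower over the whole table. The numbers come from titles of different mice and do not pair them: correlations of equal numbers ran from -0.343 to 0.295, and 1 of 16 libraries correlated best with its own number. Under the block the day 7 changes of Tob1, Tob2 and Zfp36l2 turned to 0.10, 0.088 and 0.090, and the day 14 against day 7 change of Zfp36l2 to -0.0097.

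Other changes of sign concerned values that did not pass. At day 7 they were Ier5 (-0.060), Zfp36 (-0.072) and Zfp36l2 (0.011) without control libraries 1 and 2, and Btg2 (0.067), Tob1 (0.046) and Tob2 (0.048) with the covariate for reads outside gene models. At day 14 against control they were Zfp36 (0.0087) and Zfp36l1 (0.010) with library totals, Zfp36l1 with that covariate (0.11) and with the 57% limit (0.049), and Zfp36l2 with the limit (-0.19). At day 14 against day 7 they were Ier3 (-0.28) and Zfp36l2 (-0.18) with the limit. Leaving out single libraries gave ranges of -0.028 to 0.13 for Ier5, -0.21 to 0.019 for Btg2, -0.22 to 0.071 for Tob1, -0.19 to 0.13 for Tob2 and -0.15 to 0.16 for Zfp36l2 at day 7, of -0.29 to 0.018 for Btg1 and -0.061 to 0.34 for Zfp36l2 at day 14 against control, and of -0.036 to 0.28 for Zfp36l2 at day 14 against day 7. Depth limits Ier3, which rested on as few as 5 counts.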
